A study of Mus musculus with 10 samples.

Results

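Immediate early genes are transcribed within minutes of a signal reaching the cell, without new protein synthesis. The 10 genes described here are those of this class that encode transcription factors or, for *Ier2*, a nuclear response protein: *Fos*, *Fosb*, *Jun*, *Junb*, *Jund*, *Egr1*, *Egr2*, *Egr3*, *Nr4a1* and *Ier2*. They were taken by name. All 10 are among the 25579 genes of the deposited expression tables, and 9 of them were among the 13436 genes tested, because *Fosb* reached 1 TPM, the unit of transcript abundance scaled to the same total in each library, in no library.

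The data come from C57BL/6 mice with changed *Pax5*, the gene of the transcription factor that commits lymphoid progenitors to the B cell lineage. RNA-seq was performed on cells sorted directly from bone marrow, with 2 libraries for each of 4 genotypes: *Pax5*+/+ pro-B cells, *Pax5*+/- pro-B cells with 1 null allele, *Pax5*R31Q/- pro-B cells with a paired-domain substitution on 1 allele and a null allele on the other, and *Pax5*-/- cells. The *Pax5*-/- group is labelled *Pax5* fl/fl Vav-Cre and progenitor cell. Vav-Cre acts across blood cells, so the deletion is not limited to the B lineage. Pax5 ChIP-seq, which maps where the protein sits on the genome, was performed on in vitro cultured pro-B cells with an antibody to the paired domain, with 1 *Rag2*-/- library, wild type for *Pax5* and here called *Pax5*+/+, and 1 *Pax5*R31Q/- library. There is no ChIP-seq replicate, and differences in *Rag2* and in *Pax5* between these libraries cannot be told apart. For the second library, the genotype field of the labels gives *Pax5* R31Q/- and the description gives R31Q/- for *Rag2*, and it was grouped by the former. The labels do not say whether libraries of 1 genotype came from separate mice, and they give no ages. Replicate numbers follow accession order and serve only as names.

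Fos and Jun proteins pair through leucine zippers to form AP-1, which binds DNA sites of the letters TGANTCA. Egr proteins are zinc-finger factors that bind GC-rich sites, and *Nr4a1* encodes an orphan nuclear receptor. In lymphocytes these genes are known to respond to antigen receptor and pre-B cell receptor signals, to cytokines and to stress, and *Egr1* is known for promoting early B cell development. Their transcription is classically driven through CArG boxes, the sites of serum response factor (Srf) with its Elk partners, and through cAMP response elements, the sites of Creb.

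The libraries held 21625407 to 34488454 reads, counted back from the smallest steps in which TPM values rise. *Pax5* itself was at 418 and 444 TPM in *Pax5*+/+, 272 and 287 in *Pax5*+/-, 306 and 293 in *Pax5*R31Q/- and 1242 and 1409 in *Pax5*-/-. A value per gene includes the exons left after a deletion and so does not check that label. The 12 pro-B cell markers summed to 16453 to 19336 TPM in *Pax5*+/+, 15331 to 16377 in *Pax5*+/-, 15072 to 15533 in *Pax5*R31Q/- and 7901 to 8584 in *Pax5*-/-, with none at 0. The 14 myeloid markers summed to 704 to 944, 1186 to 2294, 1352 to 1470 and 478 to 3548 TPM in the same order.

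Of the 9 tested genes, 5 changed in *Pax5*-/- compared with *Pax5*+/+, in both directions. *Egr1*, *Egr3* and *Jund* fell in *Pax5*-/- compared with *Pax5*+/+, by 8.82-, 26.6- and 3.26-fold in mean TPM, and *Fos* and *Jun* rose, by 2.45- and 1.79-fold. The value for *Egr3* rests on 3 and 12 reads in *Pax5*-/-. *Junb*, *Egr2*, *Nr4a1* and *Ier2* did not pass the test. Passing means an adjusted p below 0.05 in limma, a linear model fitted to log2(TPM + 1) of all 13436 genes. Of all genes tested, 19.7% passed as lower and 16.2% as higher in *Pax5*-/-, against 3 and 2 of the 9 members. With the thresholds of the study for an activated or repressed gene added, which are over 3-fold and a mean above 5 TPM in a genotype, *Egr1* and *Jund* remained as lower and no member as higher, beside 3.82% and 3.07% of all genes. *Egr3* left that count because its mean was below 5 TPM. In bulk samples, fewer cells of a type and less RNA per cell cannot be told apart.

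Fewer members passed between *Pax5*R31Q/- and *Pax5*+/+, which differ by the substitution and by a null allele. *Egr3* fell 4.67-fold and *Jund* fell 2.13-fold in *Pax5*R31Q/- compared with *Pax5*+/+, so that 2 of the 9 members passed as lower and 0 as higher, against 2.55% and 1.62% of all genes. At an unadjusted p below 0.05 the count was 6 of 9 members and 2521 of all genes. The *Egr3* call was lost without *Pax5*+/+ replicate 2 or either *Pax5*R31Q/- library, and the *Jund* call without any single library of these genotypes. Such a fit leaves 1 library for its genotype, so a lost call does not show that 1 library set it. With 1 library left out, the log2 difference ran from -1.65 to -1.12 for *Egr3* and from -1.31 to -0.89 for *Jund*. With no filter on low TPM, *Jund* also missed the threshold (adjusted p = 0.0678).

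No member passed in *Pax5*+/- compared with *Pax5*+/+, where 0.0223% of all genes passed as lower and 0% as higher. At an unadjusted p below 0.05, limma gave 2 of 9 members and 814 of all genes in that comparison, and limma-voom on the recovered reads called 0 members. Between *Pax5*R31Q/- and *Pax5*+/-, which both carry 1 null allele, 0 members passed by limma, beside 0.35% of all genes as lower and 0.268% as higher. There, 4 members and 1181 of all genes had an unadjusted p below 0.05, and limma-voom called 1 member, *Jun*, as higher in *Pax5*R31Q/-. The shares of all genes called by limma-voom are not given, so its counts of members have no background beside them. Between *Pax5*R31Q/- and *Pax5*-/-, *Fos* was lower in *Pax5*R31Q/- by 5.29-fold and *Egr1* higher by 3.82-fold, so 1 member was lower and 1 higher, beside 14.7% and 19.9% of all genes. These 5 comparisons share libraries, so their results are not independent of one another.

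The median log2 difference of the 9 members was -0.81 in *Pax5*R31Q/- against *Pax5*+/+ and -0.25 in *Pax5*+/- against *Pax5*+/+, where the medians of all genes were 0.04 and 0.02. In *Pax5*-/- against *Pax5*+/+ it was 0.13, beside -0.11 for all genes. In *Pax5*+/- and *Pax5*-/- the median was the value of *Junb*, which turned sign with 1 *Pax5*+/+ library left out. *Junb* was 0.017 in *Pax5*+/- without *Pax5*+/+ replicate 2, and -0.15 in *Pax5*-/- without *Pax5*+/+ replicate 1. Values of the compared genotypes did not overlap for 8 of the 9 members in *Pax5*R31Q/- against *Pax5*+/+, 3 in *Pax5*+/- and 7 in *Pax5*-/-. The shares of all genes without overlap were 59.6%, 36% and 63.7%. With 2 libraries against 2, an exact permutation test of a single gene cannot give a two-sided p below 0.333.

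**Figure D1:**
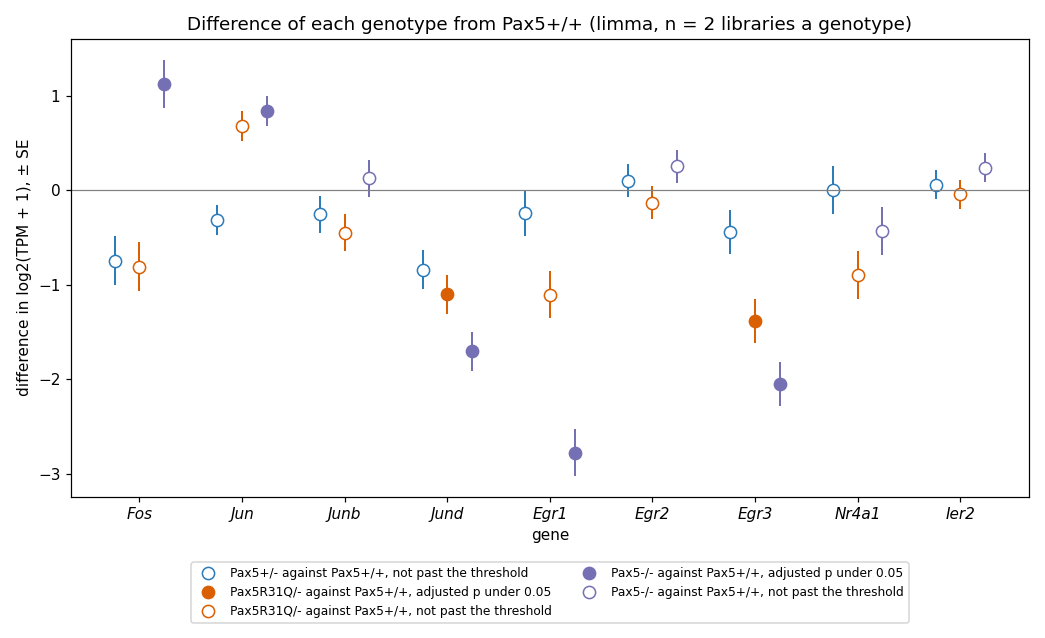
Differences in log2(TPM + 1) of the 9 tested genes in *Pax5*+/-, *Pax5*R31Q/- and *Pax5*-/- against *Pax5*+/+, with bars of 1 standard error and filled points for an adjusted p below 0.05. *Egr1*, *Egr3* and *Jund* lie below 0 in both *Pax5*R31Q/- and *Pax5*-/- against *Pax5*+/+, while *Fos* and *Jun* lie above 0 in *Pax5*-/-.

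**Figure D2:**
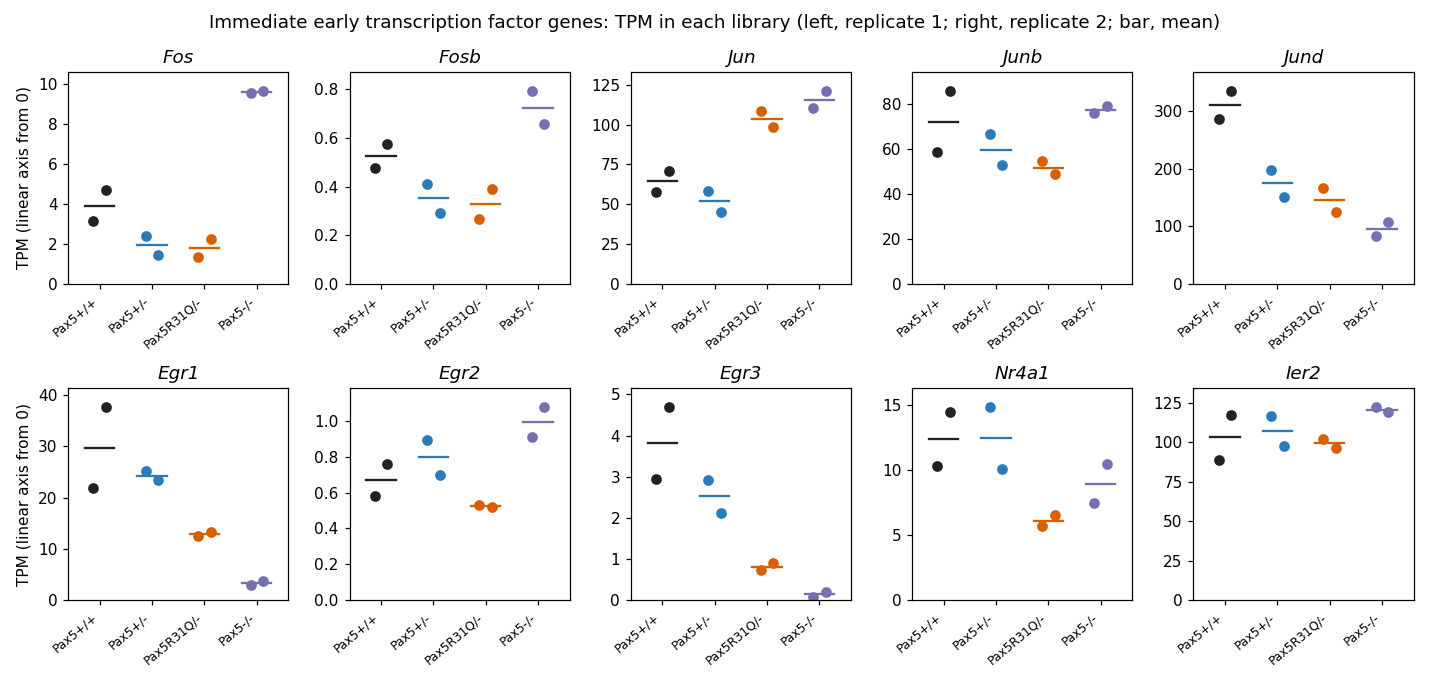
Level of each of the 10 genes in every library, in TPM on linear axes that start at 0 and differ between genes, with points for single libraries and a bar for the mean of each genotype. *Jund* is the most abundant member in *Pax5*+/+ and *Fosb* stays below 1 TPM in all 8 libraries.

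Pax5 peaks lay at or near every member. A peak was taken as near when it came within 10 kb of the gene as RefSeq places it on GRCm38.p6, and as common when a peak of the other genotype overlapped it by at least 1 bp. The *Pax5*+/+ list of 41983 peaks had 32 near the 10 genes, of which 13 were upstream, 15 inside and 4 downstream of the gene, and all 10 genes had at least 1, against 86.4% of the 12893 tested genes with a RefSeq position. The median was 3 peaks per member and 2 per tested gene. Of the 32 peaks, 30 were common with *Pax5*R31Q/-, while 73.7% of the 24593 pairs of a peak and a nearby tested gene were common. The *Pax5*R31Q/- list of 18821 peaks had 37 near the members, of which 30 were common and 7 were found with R31Q alone, while 83.8% of the 21003 pairs in that list were common. These counts have no test, since each genotype had 1 library.

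A *Pax5*+/+ peak came within 1 kb of an annotated start of transcription in 8 of the 10 genes, against 68.2% of the tested genes, and all 8 had a common one, as did 96.0% of the 8788 tested genes with such a peak. *Egr1* and *Egr3* had none within 1 kb. In the *Pax5*R31Q/- list 9 of 10 members had such a peak, against 73.2%, the additional gene being *Egr1*. The R31Q peak was the wider of the pair in 28 of 30 common pairs near the members, with median widths of 528.5 bp in *Pax5*+/+ and 744.5 bp in *Pax5*R31Q/-. Over all 15727 common *Pax5*+/+ peaks the R31Q peak was wider in 81.0%, a difference in the same direction over the whole list. Peak heights are not in the deposited lists, so a narrower or wider peak is the only size that can be given.

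**Figure D3:**
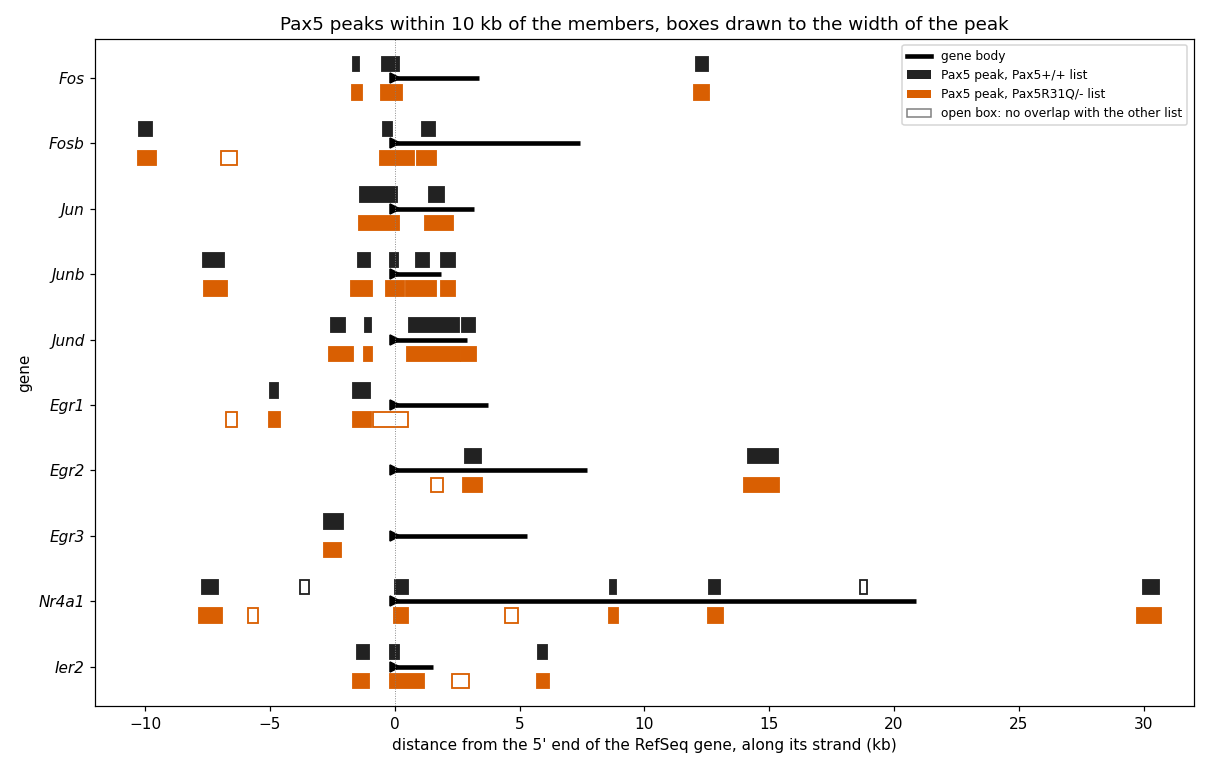
Pax5 peaks within 10 kb of each of the 10 genes, drawn as boxes by distance in kb from the 5′ end of the gene, with the *Pax5*+/+ list above the gene body, the *Pax5*R31Q/- list below it and open boxes for peaks without overlap. Of the 32 *Pax5*+/+ peaks, 30 have an R31Q peak over them.

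*Fos* encodes the founding Fos-family subunit of AP-1, which binds DNA only with a Jun partner. It was at 3.13 and 4.70 TPM in *Pax5*+/+, 2.41 and 1.47 in *Pax5*+/-, 1.36 and 2.26 in *Pax5*R31Q/- and 9.55 and 9.63 in *Pax5*-/-. Both *Pax5*-/- libraries were above all others, and the *Pax5*+/- and *Pax5*R31Q/- libraries overlapped. The log2 difference of *Pax5*-/- from *Pax5*+/+ was 1.13 ± 0.26 (SE; adjusted p = 0.0122). The call was lost without *Pax5*+/+ replicate 1, a fit that leaves 1 *Pax5*+/+ library and gave a difference of 0.89. *Pax5*R31Q/- lay 1.93 ± 0.26 below *Pax5*-/- on the same scale (adjusted p = 0.00140), and 0.06 ± 0.26 below *Pax5*+/- (adjusted p = 0.972). Against *Pax5*+/+, *Fos* in *Pax5*R31Q/- had a difference of -0.81 ± 0.26 (adjusted p = 0.147). *Fos* rested on 40 to 287 reads per library.

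*Fosb*, a close relative of *Fos*, had 0.476 and 0.576 TPM in *Pax5*+/+, 0.410 and 0.293 in *Pax5*+/-, 0.266 and 0.389 in *Pax5*R31Q/- and 0.792 and 0.656 in *Pax5*-/-, on 14 to 35 reads. The order of its means was that of *Fos*, with *Pax5*-/- first and *Pax5*R31Q/- last. Without the filter on low TPM, no comparison with *Pax5*+/+ passed (adjusted p = 0.332 for *Pax5*R31Q/-, 0.920 for *Pax5*+/- and 0.192 for *Pax5*-/-), nor did *Pax5*R31Q/- against *Pax5*+/- (adjusted p = 1), while *Pax5*R31Q/- had a difference of -0.38 ± 0.08 from *Pax5*-/- on the log2(TPM + 1) scale that passed (adjusted p = 0.0255).

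*Fos* lies at chr12:85473890-85477274 on the plus strand and *Fosb* at chr7:19302696-19310118 on the minus strand of GRCm38.p6. The main *Fos* peak, chr12:85473379-85474053, covers the start of transcription, and another lies 8675 bp beyond the 3′ end. The *Fosb* peak at the start in *Pax5*+/+ begins 119 bp upstream and is 348 bp wide. The R31Q peak there was 1351 bp wide and covered the start. Stretches of reference genome sequence are printed here and for other members from some of the *Pax5*+/+ peaks that held a CArG box or the letters GCGTGAC, a core of the Pax5 paired-domain site. Each runs 5′ to 3′ on the strand of the gene, with the motif in capitals. Counted from the start of transcription, where negative values are upstream, the CArG boxes were centred at -305 and 12228 bp for *Fos* and at -194 bp for *Fosb*, and the core stood in a *Fosb* intron. All were also inside an R31Q peak.
Fos, CArG box upstream, chr12:85473541-85473630, plus strand: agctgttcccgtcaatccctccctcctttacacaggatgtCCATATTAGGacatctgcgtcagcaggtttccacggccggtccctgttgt
Fos, CArG box downstream, chr12:85486074-85486163, plus strand: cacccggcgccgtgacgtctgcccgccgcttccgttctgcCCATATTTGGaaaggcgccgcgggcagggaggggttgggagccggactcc
Fosb, CArG box upstream, chr7:19310268-19310357, minus strand: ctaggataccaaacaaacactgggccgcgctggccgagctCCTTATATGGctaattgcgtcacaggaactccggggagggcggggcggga
Fosb, Pax5 core in an intron, read as GTCACGC on the strand of the gene, chr7:19308794-19308880, minus strand: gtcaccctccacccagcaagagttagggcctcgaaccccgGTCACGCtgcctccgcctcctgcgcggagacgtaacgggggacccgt

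The Jun family moved apart. *Jun*, *Junb* and *Jund* encode the Jun subunits of AP-1. *Jun* is known as a strong activator and promoter of proliferation, and *Jund* as the subunit present in resting cells. *Jund* was at 287 and 334 TPM in *Pax5*+/+, 198 and 151 in *Pax5*+/-, 167 and 124 in *Pax5*R31Q/- and 83.2 and 107 in *Pax5*-/-. The *Pax5*+/+ libraries stood above all others and the *Pax5*-/- libraries below, while *Pax5*+/- and *Pax5*R31Q/- overlapped. The log2 difference from *Pax5*+/+ was -1.70 ± 0.21 in *Pax5*-/- (adjusted p = 0.000654), -1.10 ± 0.21 in *Pax5*R31Q/- (adjusted p = 0.0281) and -0.84 ± 0.21 in *Pax5*+/- (adjusted p = 0.355). *Pax5*R31Q/- was 0.60 ± 0.21 above *Pax5*-/- (adjusted p = 0.0550) and had a difference of -0.26 ± 0.21 from *Pax5*+/- (adjusted p = 0.831).

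*Jun* went the other way. Its values were 57.7 and 71.1 TPM in *Pax5*+/+, 58.5 and 45.2 in *Pax5*+/-, 108.5 and 98.3 in *Pax5*R31Q/- and 110.3 and 121 in *Pax5*-/-. All 4 libraries of the last 2 genotypes were above all 4 of the first 2. The log2 difference from *Pax5*+/+ was 0.84 ± 0.16 in *Pax5*-/- (adjusted p = 0.00587), 0.68 ± 0.16 in *Pax5*R31Q/- (adjusted p = 0.0651) and -0.31 ± 0.16 in *Pax5*+/- (adjusted p = 0.950). *Pax5*R31Q/- differed from *Pax5*+/- by 0.99 ± 0.16 (adjusted p = 0.0512), a 1.99-fold difference in mean TPM, and from *Pax5*-/- by -0.16 ± 0.16 (adjusted p = 0.462). With limma-voom, *Pax5*R31Q/- passed against *Pax5*+/+ (adjusted p = 0.0330) and *Pax5*+/- (adjusted p = 0.0160), and not against *Pax5*-/- (adjusted p = 0.183). Over the 15 alternatives the adjusted p against *Pax5*+/+ ran from 0.0330 to 0.366.

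*Junb* was at 58.7 and 85.9 TPM in *Pax5*+/+, 66.9 and 52.8 in *Pax5*+/-, 54.8 and 48.9 in *Pax5*R31Q/- and 76.1 and 79.2 in *Pax5*-/-. The *Pax5*+/+ replicates spanned both *Pax5*-/- values. No difference of *Junb* passed, and the closest was *Pax5*R31Q/- against *Pax5*-/-, at -0.58 ± 0.20 (adjusted p = 0.0550; 0.0213 with limma-voom).

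The make-up of the summed Jun-family TPM shifted across the genotypes. The sum was 403 and 491 TPM in *Pax5*+/+, 323 and 249 in *Pax5*+/-, 330.2 and 272 in *Pax5*R31Q/- and 269.6 and 307 in *Pax5*-/-. *Jund* made up 71.1% and 68.0% of it in *Pax5*+/+, 61.2% and 60.6% in *Pax5*+/-, 50.5% and 45.8% in *Pax5*R31Q/- and 30.9% and 34.9% in *Pax5*-/-. *Jun* made up 14.3% and 14.5%, 18.1% and 18.2%, 32.9% and 36.2%, and 40.9% and 39.4% in the same order. Neither share overlapped between any of the 4 genotypes, and the shares were not tested.

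**Figure D4:**
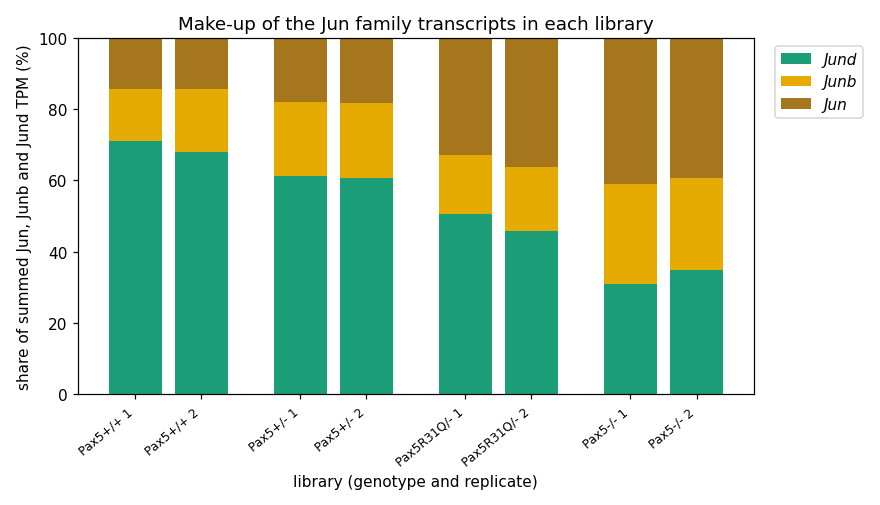
Share of *Jun*, *Junb* and *Jund* in the summed TPM of the 3 genes, in percent, as stacked bars for the 8 libraries. The *Jund* share goes from 71.1% and 68.0% in *Pax5*+/+ to 30.9% and 34.9% in *Pax5*-/-, with *Pax5*+/- and *Pax5*R31Q/- between them.

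All 3 Jun genes have 1 exon. *Jun* lies at chr4:95049036-95052222 on the minus strand, *Junb* at chr8:84976909-84978748 on the minus strand and *Jund* at chr8:70697739-70700616 on the plus strand. A 1502-bp *Pax5*+/+ peak, chr4:95052118-95053619, covers the start of *Jun* and is wider than 99.8% of the list. The antisense gene *Junos* begins within it. The widest *Pax5*+/+ peak near any member, 1976 bp at chr8:70698319-70700294, lies inside *Jund* and begins 580 bp downstream of its start. The R31Q peaks at these places were 1607 and 2102 bp wide. *Junb* had 5 peaks near it, all common. That at chr8:84985611-84986426 lies nearer the start of *Hook2*, and that at chr8:70700442-70700956 near the 3′ end of *Jund* lies nearer the start of *Iqcn*. CArG boxes were found in a pair of *Junb* peaks and Pax5 cores in 1 *Junb* and 1 *Jund* peak, in the stretches here with the motif in capitals, all inside an R31Q peak too. The *Jund* core is exonic, so a shorter stretch is given.
Junb, CArG box downstream, chr8:84976584-84976673, minus strand: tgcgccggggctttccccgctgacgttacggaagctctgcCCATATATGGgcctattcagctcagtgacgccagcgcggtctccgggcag
Junb, CArG box upstream, chr8:84980119-84980208, minus strand: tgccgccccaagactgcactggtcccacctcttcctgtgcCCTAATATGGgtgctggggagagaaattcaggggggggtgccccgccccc
Junb, Pax5 core upstream, chr8:84985714-84985800, minus strand: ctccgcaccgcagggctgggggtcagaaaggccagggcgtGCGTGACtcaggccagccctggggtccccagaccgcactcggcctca
Jund, Pax5 core in the exon, chr8:70698461-70698487, plus strand: ccttcggtggGCGTGACgcggggcgtg

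*Egr1*, whose product is the best known Egr factor, was at 22.0 and 37.6 TPM in *Pax5*+/+, 25.1 and 23.4 in *Pax5*+/-, 12.5 and 13.2 in *Pax5*R31Q/- and 2.95 and 3.80 in *Pax5*-/-. The *Pax5*+/+ and *Pax5*+/- libraries overlapped, both *Pax5*R31Q/- libraries were below them and both *Pax5*-/- libraries were lower still. The log2 difference from *Pax5*+/+ was -2.77 ± 0.25 in *Pax5*-/- (adjusted p = 0.000151) and -1.10 ± 0.25 in *Pax5*R31Q/-, a 2.31-fold lower mean (adjusted p = 0.0522). The latter missed the threshold in limma and passed in 4 of 15 alternatives, over which its adjusted p ran from 0.0239 to 0.296. *Pax5*R31Q/- was 1.67 ± 0.25 above *Pax5*-/- (adjusted p = 0.00214) and had a difference of -0.86 ± 0.25 from *Pax5*+/- (adjusted p = 0.264). Against *Pax5*+/+, *Egr1* in *Pax5*+/- had a difference of -0.24 ± 0.25 (adjusted p = 1).

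*Egr3*, which encodes an Egr factor of lymphocyte activation, showed the widest relative range of the members. It was at 2.94 and 4.69 TPM in *Pax5*+/+, 2.92 and 2.12 in *Pax5*+/-, 0.735 and 0.898 in *Pax5*R31Q/- and 0.0747 and 0.212 in *Pax5*-/-. No genotype overlapped another. *Pax5*-/- rested on 3 and 12 reads against 164 and 233 in *Pax5*+/+. Per sequenced read, *Egr3* was 22.9-fold higher in *Pax5*+/+ than in *Pax5*-/-, with an exact 95% binomial interval of 13.7 to 41.3 that covers counting error only. The log2 difference from *Pax5*+/+ was -2.05 ± 0.23 in *Pax5*-/- (adjusted p = 0.000488) and -1.38 ± 0.23 in *Pax5*R31Q/- (adjusted p = 0.0192). In *Pax5*+/- it was -0.44 ± 0.23 (adjusted p = 0.958). The pseudocount of 1 shrinks the values of a gene this low, and limma-voom on the reads gave -4.57 ± 0.58 in *Pax5*-/- (adjusted p = 0.000338) and -2.18 ± 0.37 in *Pax5*R31Q/- (adjusted p = 0.00987). *Pax5*R31Q/- was 0.67 ± 0.23 above *Pax5*-/- (adjusted p = 0.0584; 2.39 ± 0.63 and 0.0164 with limma-voom) and had a difference of -0.95 ± 0.23 from *Pax5*+/- (adjusted p = 0.181).

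*Egr2*, the Egr factor of the same lymphocyte responses as *Egr3*, was at 0.582 and 0.761 TPM in *Pax5*+/+, 0.894 and 0.697 in *Pax5*+/-, 0.533 and 0.520 in *Pax5*R31Q/- and 0.908 and 1.07 in *Pax5*-/-, on 21 to 45 reads. Only *Pax5*-/- replicate 2 reached 1 TPM, so *Egr2* passed the filter through the genotype where it was highest. Its filtered tests against *Pax5*-/-, limma-voom among them, are limited by that. By limma it passed in no comparison. Against *Pax5*-/-, *Pax5*R31Q/- had a difference of -0.38 ± 0.17 (adjusted p = 0.120), which passed with no filter on low TPM (adjusted p = 0.0411) and with limma-voom (-1.01 ± 0.35, adjusted p = 0.0457). From *Pax5*+/+, *Egr2* differed by -0.13 ± 0.17 in *Pax5*R31Q/- (adjusted p = 0.705), 0.10 ± 0.17 in *Pax5*+/- (adjusted p = 1) and 0.25 ± 0.17 in *Pax5*-/- (adjusted p = 0.282), the last opposite in sign to those of *Egr1* and *Egr3*.

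Near the Egr genes, 3 R31Q peaks overlapped no *Pax5*+/+ peak, with a pair of them at *Egr1*. In *Pax5*+/+, the nearest *Egr1* peak ended 1014 bp upstream of the start of transcription. In *Pax5*R31Q/-, a 1396-bp peak covered the start itself and overlapped no *Pax5*+/+ peak, although it would count as common if peaks within 200 bp of each other did. Another R31Q peak without a counterpart lay 6326 bp upstream. Both other *Egr1* peaks were common. *Egr3* had 1 peak, common to both genotypes.

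*Egr3* lies at chr14:70077317-70082613 and *Egr2* at chr10:67534469-67542188, both on the plus strand. The *Egr3* peak ends 2089 bp upstream of the start. The *Egr2* peak at chr10:67537266-67537904 covers annotated starts of the gene, and a second *Pax5*+/+ peak downstream lies nearer the start of *Ado*. The gene *Gm32255* overlaps *Egr2* on the other strand, and since the sources used here do not state stranded counting for these tables, their reads may not be told apart. An R31Q peak at chr10:67535928-67536389 had no *Pax5*+/+ counterpart. CArG boxes, in capitals, lay at 2 places of the *Egr2* peak, each centred at -68 bp from an annotated start. The second is exonic, so a shorter stretch is given.
Egr2, CArG box in an intron, chr10:67537454-67537543, plus strand: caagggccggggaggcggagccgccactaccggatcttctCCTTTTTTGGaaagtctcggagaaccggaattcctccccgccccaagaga
Egr2, CArG box in an exon, chr10:67537787-67537816, plus strand: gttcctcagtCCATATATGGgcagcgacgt

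*Nr4a1*, known in lymphocytes as a reporter of antigen receptor signals, was at 10.3 and 14.5 TPM in *Pax5*+/+, 14.8 and 10.1 in *Pax5*+/-, 5.68 and 6.56 in *Pax5*R31Q/- and 7.45 and 10.5 in *Pax5*-/-. Both *Pax5*R31Q/- libraries were below all others, and the other 3 genotypes overlapped. The log2 difference of *Pax5*R31Q/- was -0.90 ± 0.25 from *Pax5*+/+ (adjusted p = 0.109) and -0.90 ± 0.25 from *Pax5*+/- (adjusted p = 0.259), with mean TPM 2.03- and 2.04-fold lower. In *Pax5*-/- the difference from *Pax5*+/+ was -0.43 ± 0.25 (adjusted p = 0.224), and no comparison of *Nr4a1* passed.

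*Ier2* encodes a nuclear protein induced by growth factors. It was at 89.0 and 117 TPM in *Pax5*+/+, 116 and 97.8 in *Pax5*+/-, 102 and 96.6 in *Pax5*R31Q/- and 122 and 119 in *Pax5*-/-. It was the most even of the members across the genotypes, and no comparison of it passed. Its difference from *Pax5*+/+ was 0.24 ± 0.15 in *Pax5*-/- (adjusted p = 0.258) and -0.04 ± 0.15 in *Pax5*R31Q/- (adjusted p = 0.911).

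*Nr4a1* lies at chr15:101253902-101274795 on the plus strand and *Ier2*, with 1 exon, at chr8:84661331-84662852 on the minus strand. With 7 *Pax5*+/+ peaks, *Nr4a1* had the most of the members, and it had both *Pax5*+/+ peaks near members that were not found with R31Q, at chr15:101250107-101250481 and chr15:101272544-101272803. The latter lies in the gene and holds a Pax5 core. R31Q peaks without counterpart lay at chr15:101248002-101248407 and chr15:101258325-101258839. The *Nr4a1* peak at chr15:101283864-101284525 lies nearer the start of *Atg101*. *Ier2* had 3 *Pax5*+/+ peaks, all common, with that at chr8:84662699-84663040 over its start, and an R31Q peak alone at chr8:84659880-84660552. Pax5 cores, in capitals, were centred at -209 bp from an annotated *Nr4a1* start, within the common peak chr15:101266489-101266948, and at 3730 bp from the nearest start, within the peak found in *Pax5*+/+ alone.
Nr4a1, Pax5 core in a common peak, read as GTCACGC on the strand of the gene, chr15:101266594-101266680, plus strand: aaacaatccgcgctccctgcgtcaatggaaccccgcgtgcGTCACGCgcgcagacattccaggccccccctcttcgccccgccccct
Nr4a1, Pax5 core in a peak of *Pax5*+/+ alone, chr15:101272620-101272706, plus strand: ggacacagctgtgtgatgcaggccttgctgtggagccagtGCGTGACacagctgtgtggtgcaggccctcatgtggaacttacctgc

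CArG boxes were found in a larger share of the members' peaks than of either whole list, which is a description with no test. In the central 300 bp of the *Pax5*+/+ peaks at least that wide, searched on both strands, a CArG box was present in 6 of 26 member peaks and in 0.8% of 31636 peaks. In *Pax5*R31Q/- it was present in 5 of 33 and 1.01%. The Egr site, GCGNGGGCG, was present in 7 of 26 and 4.06% in *Pax5*+/+ and in 8 of 33 and 7.91% in *Pax5*R31Q/-. The Pax5 core, GCGTGAC, was present in 2 of 26 and 4.07%, and in 2 of 33 and 5.93%. The AP-1 site TGANTCA was in 0 of 26 and 4.22% of *Pax5*+/+ peaks and in 1 of 33 and 6.06% of R31Q peaks. Over the full width of the *Pax5*+/+ peaks, the AP-1 letters were in a peak of *Fos*, of *Junb* and of *Egr2*, with no share of the whole list given. The peaks of *Egr1* were not searched for motifs.

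RefSeq promoter windows, from 250 bases before to 50 after a start, were found for 7 of the 10 genes and not for *Egr1*, *Egr3* and *Ier2*. A member is named where any of its windows held the letters, while the shares count single windows. *Egr2* had several windows, some of them overlapping. The letters TGACG, the half-site of a cAMP response element, were in windows of *Fos*, *Fosb*, *Junb*, *Egr2* and *Nr4a1* and in 20.81% of 32851 windows. No member window held the full element TGACGTCA, which was in 1.79%, or the AP-1 letters TGANTCA, in 7.81%. A CArG box was in windows of *Egr2* and in 1.63% of all, the Egr site in those of *Fosb* and *Nr4a1* and in 5.55%, and the Pax5 core in that of *Nr4a1* and in 2.09%. A match describes letters and does not show that a factor binds there.

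Libraries of the same genotype differed together in these genes. All 10 members were higher in *Pax5*+/+ replicate 2 than in replicate 1, with a median log2 ratio of 0.43, while 48.7% of all tested genes were higher there. All 10 were higher in *Pax5*+/- replicate 1 than in replicate 2, with a median size of 0.33 on the log2 scale, while 45.6% of all genes were. In *Pax5*R31Q/- the members were 5 and 5. In *Pax5*-/-, 8 of 10 were higher in replicate 2, where 71.3% of all genes were higher. The part of this shared spread in the differences between genotypes was not tested.

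Over the 8 libraries, log2(TPM + 1) of *Egr1* and *Egr3* had a Pearson correlation of 0.96 (Spearman 0.93), *Jund* and *Egr3* of 0.92 and *Jund* and *Egr1* of 0.87. *Junb* correlated with *Ier2* at 0.83 and with *Fos* at 0.80, and *Jun* with *Egr3* at -0.80. Since libraries of 1 genotype share that genotype, these are descriptions with no test.

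For the members with a mean of at least 5 TPM, the 3 other tested genes of most similar pattern were found by the same Pearson correlation over the 8 libraries. *Egr1* was closest to *Sit1*, *Fzd9* and *4632428C04Rik*, each at 0.997. *Jund* was closest to *Sqstm1* (0.993), *Cd1d2* (0.985) and *Bsdc1* (0.980). *Junb* was closest to *Mroh1* (0.984), *Nt5c* (0.983) and *Kdelr1* (0.982), and *Jun* to *Ppp1r26* (0.979), *Frmd6* (0.966) and *Zhx2* (0.951). *Nr4a1* was closest to *Ppif* (0.983), *Als2cl* (0.968) and *Dnaaf5* (0.960), and *Ier2* to *Wiz* (0.971), *Jak3* (0.970) and *Klhl26* (0.967). The 3 genes given for each member had the highest of 13435 correlations over 8 libraries.

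Among other immediate early response genes, more passed as lower than as higher in *Pax5*-/-. Of 40 listed, which include feedback phosphatases, mRNA-decay factors and growth-arrest genes, 39 were tested, and 18 fell and 3 rose compared with *Pax5*+/+, with a median log2 difference of -0.52. Over all genes, 19.7% passed as lower and 16.2% as higher, with a median of -0.11, and the list was not tested against them. Of these, 8 changed by over 2-fold with a mean above 5 TPM in a genotype, led by *Id3*, *Arc* and *Dusp5*. No share of all genes at those thresholds is given beside that count. *Id3*, an inhibitor of E-protein transcription factors and a known Egr target, was at 42.2 TPM against 441 (log2 difference -3.33 ± 0.19, adjusted p = 2.4e-05). *Arc*, an Srf-driven gene best known in neurons, was at 0.891 against 11.8 TPM (-2.75 ± 0.16, adjusted p = 2.77e-05). *Dusp5*, a nuclear Erk phosphatase, rose to 139 from 30.7 TPM (2.14 ± 0.11, adjusted p = 1.81e-05). In *Pax5*R31Q/- 1 fell and 1 rose, neither by over 2-fold, a count near that over all genes, of which 2.55% passed as lower and 1.62% as higher. These were *Csrnp1*, at 107 against 177 TPM (-0.73 ± 0.12, adjusted p = 0.0183), and *Klf4*, at 12.6 against 6.34 TPM (0.90 ± 0.19, adjusted p = 0.0440), both named after their values were seen. Between *Pax5*R31Q/- and *Pax5*-/-, 5 were lower and 13 higher in *Pax5*R31Q/-, beside 14.7% and 19.9% of all genes.

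Of 12 other AP-1 and ATF subunits, 10 were tested, and 1 fell and 4 rose in *Pax5*-/-, beside 19.7% and 16.2% of all genes. *Batf*, a subunit that pairs with Jun proteins in lymphocytes, was the only gene of that list over 2-fold, at 36.3 against 10.6 TPM (1.75 ± 0.28, adjusted p = 0.00253). Of 5 further Egr and Nr4a family genes and Egr corepressors, 2 were tested and *Nab2*, a corepressor that is itself induced by Egr factors, fell to 1.71 from 7.0 TPM (-1.56 ± 0.18, adjusted p = 0.000521). No gene of either list passed in *Pax5*R31Q/- compared with *Pax5*+/+ by limma.

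Of 29 upstream kinases and factors, all were tested, and 5 fell and 3 rose in *Pax5*-/-, shares no larger than the 19.7% and 16.2% of all genes. Among those over 2-fold was *Elk4*, an ETS factor that binds with Srf, at 55.9 against 127 TPM (-1.17 ± 0.10, adjusted p = 0.000146). None passed in *Pax5*R31Q/- compared with *Pax5*+/+. In *Pax5*+/- compared with *Pax5*+/+, no gene of any of these lists passed by limma.

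Few heat shock genes and myeloid markers passed in any of these comparisons with *Pax5*+/+, and more markers of some other cell types did. Of all genes, 19.7% passed as lower and 16.2% as higher in *Pax5*-/- compared with *Pax5*+/+. The 10 heat shock genes summed to 3646 to 4757 TPM in *Pax5*+/+, 4531 to 5005 in *Pax5*+/-, 5206 to 5699 in *Pax5*R31Q/- and 5794 to 5856 in *Pax5*-/-, and 1 of the 10, *Hsp90ab1*, passed, as higher in *Pax5*-/- (4016 against 2485 TPM). Of the 14 myeloid markers 1 passed, *Csf1r*, as higher in *Pax5*-/-, where the replicates summed to 3548 and 478 TPM while *Fos* was at 9.55 and 9.63. T and NK cell markers summed to 120 to 136 TPM in *Pax5*+/+ and 406 to 448 in *Pax5*-/-, with 5 of 8 tested higher and 1 lower. Erythroid markers summed to 147 to 235 and 25.1 to 88.1 TPM, with 3 of 6 lower. Stromal and endothelial markers summed to 121 to 152 and 176 to 188 TPM, with 3 of 8 higher and 1 lower, and pre-B and mature B cell markers to 286 to 322 and 842 to 1102 TPM, with 3 of 8 higher and 4 lower. Of the pro-B cell markers 8 of 12 were lower and 1 higher. In *Pax5*R31Q/- compared with *Pax5*+/+, the calls were 1 of 12 lower for pro-B, 2 lower and 1 higher of 8 for pre-B and mature B, 1 of 8 higher for T and NK, and 0 for myeloid, erythroid and stromal markers and heat shock genes, beside 2.55% of all genes as lower and 1.62% as higher. Their part in the members' differences was not tested.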

How the data were processed

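RNA-seq tables hold TPM, which the authors computed per gene after mapping with STAR and counting with featureCounts. ChIP-seq peaks were called by the authors with MACS and deposited as positions with a score of 0 throughout. The submitters' processing notes name STAR 2.4.2, Bowtie2 2.3.5.1, SAMtools 1.9 and Picard 2.18.27. The study fitted a count model to its read counts. Only TPM were used here, so limma 3.58.1 in R 4.3.3 was fitted to log2(TPM + 1) of all 8 libraries with genotype as the only term, a trended prior and Benjamini-Hochberg adjustment over the 13436 genes with at least 1 TPM in any library. Whole reads were recovered for 18206 of 18206 genes (tolerance 1e-09) and tested with limma-voom. Libraries of 1 genotype differed by more than counting noise (chi-square per gene 12.4 to 66.7). P-values measure only the spread between libraries, which may be technical.

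Genes, lists, motifs and tests were chosen with earlier results of these data known. All 10 genes are described by name. In lists of related genes, those with adjusted p below 0.05, over 2-fold and a mean above 5 TPM are counted and up to 3 of largest size named. Some items that these rules select are not reported here. For members with a mean of at least 5 TPM, the 3 other tested genes of highest Pearson correlation are named. Symbols not in the tables were Ighd, Hbb-bt and Trac. Sequences and gene positions come from RefSeq on GRCm38.p6, read with pysam 0.24.0 in Python 3.11.15, and figures were drawn with matplotlib 3.10.9. The scripts were tested on simulated data. Alternatives were a pseudocount of 0.1, no filter, only the genotypes compared, median-ratio and quantile scaling, no trend, limma-voom, the fold threshold of the study, each library left out, and other distances and overlaps for peaks.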

Additional observations from a re-analysis of the deposited data

How the results depend on the processing

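Of the log2 differences of single members recomputed under the 15 alternatives, 618 kept direction and side of the threshold, 24 came to pass it, 9 no longer passed and 15 turned sign. In *Pax5*-/- against *Pax5*+/+, *Egr1*, *Egr3*, *Jund* and *Jun* passed in 15 of 15 alternatives, as did *Egr1* and *Fos* in *Pax5*R31Q/- against *Pax5*-/-. Members lower in *Pax5*R31Q/- than in *Pax5*+/+ numbered 2, and 1 with no filter (*Jund* lost), 0 at over 3-fold, 0 to 2 with 1 library left out and 3 with median-ratio scaling, quantile scaling or limma-voom (*Egr1* gained); members higher numbered 0, and 1 with limma-voom (*Jun*). Members higher in *Pax5*-/- than in *Pax5*+/+ numbered 2, 0 at over 3-fold and 1 to 2 with 1 library left out (*Fos* lost without *Pax5*+/+ replicate 1). Against *Pax5*+/-, members lower in *Pax5*R31Q/- numbered 0, and 1 (*Egr1*) with only the genotypes compared. Members higher there numbered 0, and 1 (*Jun*) with only the genotypes compared, median-ratio scaling, quantile scaling or limma-voom. Against *Pax5*-/-, members lower in *Pax5*R31Q/- numbered 1, and 3 with no filter, 2 with only the genotypes compared, 2 with median-ratio scaling, 2 with quantile scaling, 3 with limma-voom and 1 to 2 with 1 library left out. Members higher there numbered 1, and 2 with a pseudocount of 0.1, no trend or limma-voom and 1 to 2 with 1 library left out. Sign turned only in differences that did not pass. *Nr4a1* in *Pax5*+/- against *Pax5*+/+ was 0.00, and -0.018 with median-ratio scaling, -0.018 with quantile scaling and -0.012 with limma-voom. With 1 library left out, it ran from -0.25 to 0.26, *Junb* from -0.52 to 0.017, *Egr1* from -0.61 to 0.14 and *Ier2* from -0.14 to 0.26 in that comparison. *Ier2* ran from -0.24 to 0.16 in *Pax5*R31Q/- against *Pax5*+/+, *Junb* from -0.15 to 0.40 in *Pax5*-/- against *Pax5*+/+, and *Fos* from -0.30 to 0.17 and *Ier2* from -0.22 to 0.024 in *Pax5*R31Q/- against *Pax5*+/-. The cause of these changes was not tested. A library left out leaves 1 for its genotype, which is then assumed to vary like the others. Within 50 kb, *Pax5*+/+ peaks near the members numbered 88, of which 67 were common, against 32 and 30 within 10 kb. A stricter rule, an overlap of 50% of both peaks, lowered the common peaks within 10 kb at *Fosb*, *Junb* and *Ier2* alone. They went from 3 to 2, from 5 to 3 and from 3 to 2, in both lists. *Ier2* then had no common peak within 1 kb of its start. The share over all genes at that overlap is not given. No paired analysis was possible because the labels give no replicate numbers, and those used here were given in accession order. The low counts of *Fosb*, *Egr2* and, in *Pax5*-/-, *Egr3* limit what can be said of them.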
